A study of Homo sapiens with 33 samples.

Results

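The 9 genes described here encode lineage transcription factors of triple-negative breast cancer: SOX9, SOX4, FOXQ1, FOXC1, RUNX1, RUNX2, SNAI2, ZEB1 and GRHL2. They were taken by name from a count table of 59428 entries, and all 9 were found. Their mRNA was measured in 33 libraries of 3′ tag sequencing, a method that reads only the tail end of each poly(A) transcript. The study asked what blocking CDK7 and CDK9, kinases that act on RNA polymerase II, does to gene expression, alone and together. The inhibitor part held 22 libraries of the established breast cancer lines that the labels spell MDA-MD-468 and MDA-MD-231, both of labelled genotype WT. Each line was treated with SY200/V50, V50 or SY200 for 3, 6 and 12 h, and had DMSO and untreated parental cells at 0 h as controls. The knockout part held 11 libraries of MDA-MD-231: CDK7/9 KO, CDK9 KO, CDK7 KO and CDK1 KO at 72 and 96 h, empty vector at 72 and 96 h, and parental cells at 0 h. Neither SY200 nor V50 is assigned to a kinase in the labels, the numbers in these names carry no unit there, and a knockout line may be a clone or a pool. There was 1 library per line, condition and time, so every p-value rests on differences between lines or between times and not on repeated cultures.

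These factors bind DNA and set which epithelial or mesenchymal programme a breast cell follows. SOX9 and SOX4 are HMG-box factors active in mammary progenitors and basal-like tumours. FOXQ1 and FOXC1 are forkhead factors, and FOXC1 is a marker of the basal-like subtype. SNAI2 (Slug) and ZEB1 are zinc-finger repressors of epithelial genes such as CDH1, and GRHL2 keeps the epithelial state and opposes ZEB1. RUNX1 and RUNX2 bind DNA with the partner CBFB, and RUNX2 is best known as the master factor of bone. CDK7 is the kinase of the general factor TFIIH, and CDK9, in P-TEFb, releases paused RNA polymerase II, so mRNAs with a short life are the first to show a block of these kinases.

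On GRCh38, 4 of the 9 genes lie on chromosome 6. FOXQ1 (chr6:1312440-1314748) and FOXC1 (chr6:1609972-1613897) are separated by 295 kb, and SOX4 (chr6:21592768-21598619) and RUNX2 (chr6:45328157-45664349) lie further along. All 4 are on the plus strand. SOX9 is at chr17:72121020-72126420, RUNX1 at chr21:34787801-36004667 and ZEB1 at chr10:31318495-31529814. The genes of this set span 2.31 kb (FOXQ1) to 336 kb (RUNX2), apart from the longer RUNX1. SOX4, FOXQ1 and FOXC1 consist of 1 exon. Promoters of 6 of the 9 genes were read from the RefSeq promoter table of GRCh38.p14. Those of SOX9, SNAI2 and GRHL2 were not read, so 6 is not a count of what that table holds. The 3 promoters printed next belong to the 1-exon genes, which are among the members with the largest falls. Each runs 5′ to 3′ from 250 bases before to 50 bases after the RefSeq start, which need not be the start in the gene annotation used above. The capitals mark the GC box (GGGCGG, or CCGCCC on the other strand) and the CCAAT box (CCAAT, or ATTGG on the other strand).
FOXQ1, chr6:1311848-1312147, plus strand: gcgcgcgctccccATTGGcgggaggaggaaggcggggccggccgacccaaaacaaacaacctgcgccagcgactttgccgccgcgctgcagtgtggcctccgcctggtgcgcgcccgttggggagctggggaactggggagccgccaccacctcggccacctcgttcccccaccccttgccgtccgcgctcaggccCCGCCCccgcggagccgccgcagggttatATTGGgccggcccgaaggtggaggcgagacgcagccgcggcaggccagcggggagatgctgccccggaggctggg
FOXC1, chr6:1609665-1609964, plus strand: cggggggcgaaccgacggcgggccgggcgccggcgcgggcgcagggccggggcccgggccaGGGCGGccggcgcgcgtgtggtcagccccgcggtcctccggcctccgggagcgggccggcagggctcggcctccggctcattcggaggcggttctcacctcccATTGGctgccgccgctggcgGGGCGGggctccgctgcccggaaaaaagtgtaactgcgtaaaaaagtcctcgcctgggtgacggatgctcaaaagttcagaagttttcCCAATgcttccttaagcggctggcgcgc
SOX4, chr6:21593501-21593800, plus strand: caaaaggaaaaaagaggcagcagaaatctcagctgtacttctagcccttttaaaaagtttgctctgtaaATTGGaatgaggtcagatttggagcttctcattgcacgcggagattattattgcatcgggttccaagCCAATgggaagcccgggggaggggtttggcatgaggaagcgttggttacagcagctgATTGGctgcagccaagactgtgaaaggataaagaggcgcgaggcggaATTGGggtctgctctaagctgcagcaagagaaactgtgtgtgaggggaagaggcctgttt
The CCAAT box occurred 2 times in the FOXQ1 window, 2 times in that of FOXC1 and 4 times in that of SOX4. Of the 35116 promoters read from the table, called all promoters here, 34.6% held at least 1. The GC box occurred 1 time for FOXQ1 and 2 times for FOXC1, and was found in 45.0% of all promoters. No TATAAA was found in these 3 windows, against 11.5% of all promoters that held it. The FOXQ1 and FOXC1 windows had a GC content of 74.7% and 72.7%, that of SOX4 had 49.3%, and the median of all promoters was 58.7%. These matches are descriptions of the sequence and not of binding.

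The libraries held between 16985219 and 22859779 counted reads. Levels are given as CPM, counts scaled to a common library size with TMM factors, and the inhibitor and knockout parts were scaled apart. TMM sets each change relative to the bulk of genes, so a loss of RNA shared by all genes is not seen, and fewer cells and less RNA per cell cannot be told apart in bulk samples. Markers separated the labelled lines: CDH1, the epithelial cadherin, had a median of 192.1 CPM over 11 libraries of MDA-MD-468 and 0.193 CPM over 22 of MDA-MD-231, and vimentin (VIM) had 25.2 and 5853 CPM. The 24 epithelial markers summed to between 5250 and 8815 CPM in MDA-MD-468 and between 822.6 and 1925 CPM in MDA-MD-231. The 24 mesenchymal markers summed to between 882.8 and 2560 CPM and between 7834 and 21720 CPM. The hormone receptor gene PGR was at 0 in every MDA-MD-468 library and at most 0.160 CPM in MDA-MD-231, and ERBB2 had medians of 50.7 and 67.5 CPM. ESR1, also a hormone receptor gene, was not at 0 in MDA-MD-468. It had 1.34 to 7.75 CPM there, with a median of 4.33 CPM, and at most 0.462 CPM in MDA-MD-231. The share of reads from the 13 mitochondrial mRNAs was 5.66% to 13.5% in treated and 3.88% to 3.93% in control MDA-MD-468 libraries, and 2.42% to 5.05% in treated and 2.17% to 2.51% in control MDA-MD-231 libraries. All 13 rose with SY200/V50 and with V50 in both lines by edgeR, and the part of this shift in the results was not tested. Scaled to these 13 mRNAs instead of TMM, the median log2 fold change of all genes moved to -1.48 with SY200/V50, -1.03 with V50 and -0.60 with SY200 in MDA-MD-468, and to -1.13, -0.75 and -0.24 in MDA-MD-231.

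In the control libraries the lines differed at 6 of the 9 genes, where 53.8% of all genes tested passed, 28.8% higher and 25.0% lower in MDA-MD-468 (edgeR quasi-likelihood test, Benjamini-Hochberg (BH) adjusted p under 0.05). SOX4 and GRHL2 were higher in MDA-MD-468, and RUNX1, RUNX2, SNAI2 and ZEB1 were lower there. SOX4 stood at 67.7 CPM with DMSO and 103.9 CPM in parental MDA-MD-468 cells, against 11.1 and 15.7 CPM in MDA-MD-231 cells, a log2 difference of 2.68 ± 0.33 (SE; edgeR BH-adjusted p = 8.27e-06). The size of this SOX4 gap depends on the MDA-MD-231 libraries used. In the knockout part, which was scaled apart, SOX4 was at 51.9 CPM in parental MDA-MD-231 cells and at 56.3 and 51.7 CPM with the empty vector. Why SOX4 differed between the parts was not tested. GRHL2, the keeper of the epithelial state (chr8:101492432-101669726), had 1827 and 2264 reads in MDA-MD-468 and 0 in both MDA-MD-231 controls. Against a floor of 3 reads in a library, GRHL2 was at least 745-fold higher in MDA-MD-468. The mesenchymal factors showed the opposite pattern. SNAI2 (chr8:48917604-48921740) had 0 reads in all 11 MDA-MD-468 libraries, against 575 and 1156 reads in the MDA-MD-231 controls, which makes it at least 255-fold lower in MDA-MD-468 by the same floor. ZEB1 had 5 and 4 reads in the MDA-MD-468 controls, against 1962 and 2100 in MDA-MD-231. RUNX2 was at 4.27 and 6.58 CPM in MDA-MD-468, against 14.8 and 24.6 CPM in MDA-MD-231, and RUNX1 at 65.8 and 92.1 CPM, against 145.2 and 151.0 CPM. The ZEB1 difference was -8.62 ± 0.43, that of RUNX2 -1.86 ± 0.36 and that of RUNX1 -0.91 ± 0.30 (edgeR BH-adjusted p of 1.10e-09, 0.000521 and 0.0176). RUNX1 did not pass without the DMSO library of MDA-MD-468 (-0.65, edgeR BH-adjusted p = 0.165), the DMSO library of MDA-MD-231 (-0.90, edgeR BH-adjusted p = 0.0557) or its parental library (-0.86, edgeR BH-adjusted p = 0.0695).

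SOX9, FOXQ1 and FOXC1 did not pass between the lines, with log2 differences of -0.36 ± 0.32, -0.94 ± 0.51 and 0.92 ± 0.42 for MDA-MD-468 over MDA-MD-231 (edgeR BH-adjusted p of 0.364, 0.135 and 0.0800). FOXC1 passed without the V50 12 h library of either line (0.95 each, edgeR BH-adjusted p of 0.0131 and 0.0130) and, closer to the threshold, without the V50 6 h library of either. FOXQ1 passed without the DMSO library of MDA-MD-231 (-1.47, edgeR BH-adjusted p = 0.0294). SNAI2, ZEB1 and GRHL2 are therefore described in 1 line each, and a gene is called measurable in a line where its 2 controls averaged at least 10 reads. That leaves 7 measurable genes in MDA-MD-468 and 8 in MDA-MD-231. Controls of a line were its DMSO library together with its parental one, which were not alike at every gene. FOXQ1 had 18.2 CPM with DMSO and 52.4 CPM in parental MDA-MD-231 cells, and SOX9 had 74.8 CPM with DMSO and 144.5 CPM in parental MDA-MD-468 cells. Over both lines, 0 of 9 genes passed between DMSO and parental cells (0.0370% of all genes), 2 had an unadjusted p under 0.05, and DESeq2 called 0.

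With SY200/V50 the SOX and FOX genes fell in both lines and SNAI2 in MDA-MD-231, by 6.47-fold (FOXC1 in MDA-MD-468) to 19.99-fold (FOXQ1 in MDA-MD-231). All 7 measurable genes were lower in MDA-MD-468 and 5 of 8 in MDA-MD-231, where 18.2% and 19.5% of all genes were lower, 13.5% and 20.0% higher, and 31.7% and 39.5% passed in either direction. These shares are of all genes tested, including genes with few or no reads in a line. Among measurable coding genes grouped by length, 25.1% to 27.9% were lower in MDA-MD-468 and 26.4% to 28.1% in MDA-MD-231. The median log2 fold change over the measurable members was -2.69 in MDA-MD-468 and -3.29 in MDA-MD-231, against -0.00 and 0.09 over all genes. At 12 h the 7 genes of MDA-MD-468 and the 8 of MDA-MD-231 each lay below both controls of their line, as did 49.4% and 43.3% of all measurable genes, at a median of 12.3% and 8.5% of the control mean (90.1% and 102% over all measurable genes).

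**Figure D1:**
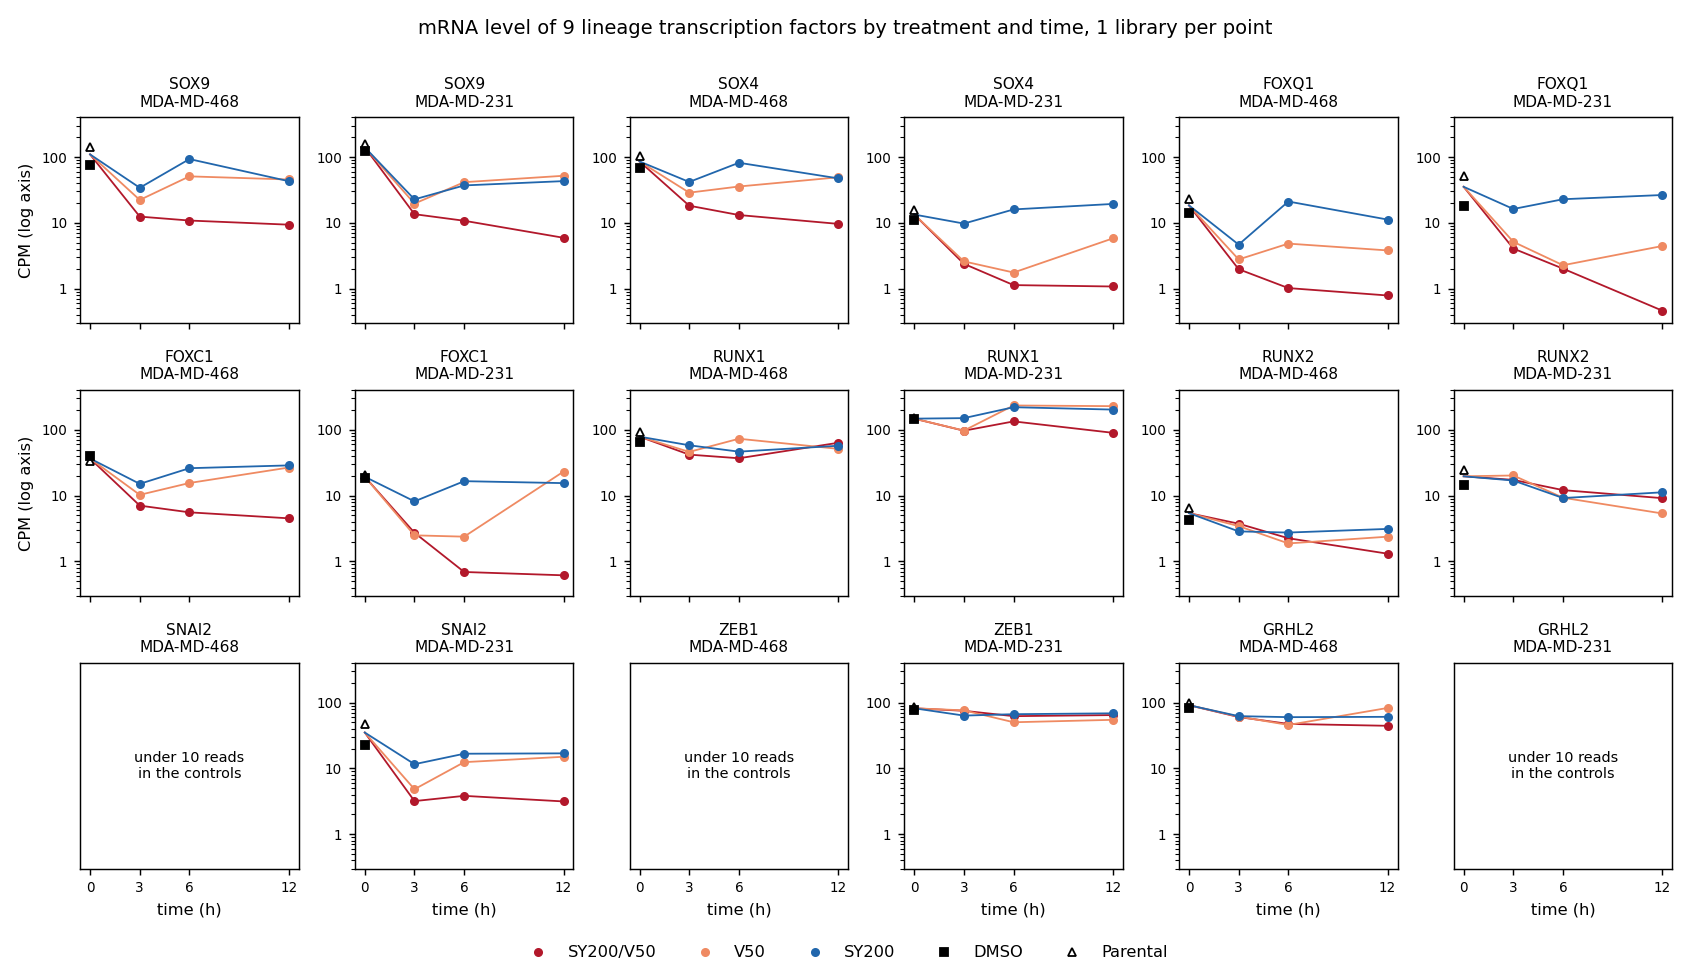
CPM (log axis) of each gene against hours of treatment, MDA-MD-468 left of MDA-MD-231 for each gene, 1 library per point; lines start at the mean of the DMSO (square) and parental (triangle) libraries. SOX9, SOX4, FOXQ1 and FOXC1 are lowest with SY200/V50 at every time in MDA-MD-468, and ZEB1 stays between 50.4 and 76.5 CPM with every treatment in MDA-MD-231.

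SOX9 had 12.4, 10.8 and 9.38 CPM at 3, 6 and 12 h of SY200/V50 in MDA-MD-468, against 74.8 CPM with DMSO and 144.5 CPM in parental cells. In MDA-MD-231 it had 13.5, 10.8 and 5.93 CPM, against 122.4 and 158.1 CPM. Already at 3 h SOX9 was at 11.3% of the control mean in MDA-MD-468 and 9.65% in MDA-MD-231. The mean log2 fold change over the 3 times was -3.34 ± 0.30 in MDA-MD-468 (edgeR BH-adjusted p = 9.92e-06) and -3.86 ± 0.31 for MDA-MD-231 (edgeR BH-adjusted p = 6.97e-06). SOX4 had 18.2, 13.1 and 9.64 CPM in MDA-MD-468, against 67.7 and 103.9 CPM in the controls, and 2.38, 1.13 and 1.08 CPM in MDA-MD-231, against 11.1 and 15.7 CPM. Its log2 fold changes were -2.70 ± 0.29 and -3.20 ± 0.33 (edgeR BH-adjusted p of 3.37e-05 and 1.81e-05). For both SOX genes all 6 treated libraries lay below all controls of their line.

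FOXQ1, a forkhead factor linked to epithelial plasticity, was among the genes with the largest falls. FOXQ1 had 1.98, 1.02 and 0.787 CPM in MDA-MD-468, against 14.1 and 22.7 CPM with DMSO and in parental cells, and 4.07, 2.01 and 0.462 CPM in MDA-MD-231, against 18.2 and 52.4 CPM. At 12 h 12 and 6 reads of FOXQ1 were left in the 2 lines, 4.28% and 1.31% of the control mean in CPM. The log2 fold changes were -4.05 ± 0.54 in MDA-MD-468 and -4.32 ± 0.53 in MDA-MD-231 (edgeR BH-adjusted p of 0.000158 and 4.46e-05). FOXC1 had 7.06, 5.58 and 4.53 CPM in MDA-MD-468, against 40.0 and 33.4 CPM, and 2.73, 0.692 and 0.616 CPM in MDA-MD-231, against 18.2 and 20.5 CPM. Its log2 fold changes were -2.69 ± 0.40 and -4.01 ± 0.45 (edgeR BH-adjusted p of 0.000301 and 2.57e-05). None of these 8 falls of SOX9, SOX4, FOXQ1 and FOXC1 was lost when any 1 of the 22 libraries was left out, and with each line fitted alone only that of FOXC1 in MDA-MD-231 missed the threshold (-3.94, edgeR BH-adjusted p = 0.0532).

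Of the repressors of epithelial genes, SNAI2 fell in MDA-MD-231 and ZEB1 did not pass. SNAI2 had 3.20, 3.84 and 3.16 CPM at 3, 6 and 12 h of SY200/V50, against 22.96 and 47.4 CPM, so the treated libraries lay far below both controls. Its log2 fold change was -3.38 ± 0.38 (edgeR BH-adjusted p = 0.000301), and -3.52 ± 0.49 with MDA-MD-231 fitted alone (edgeR BH-adjusted p = 0.0206). Without any 1 of the 3 SY200/V50 libraries of MDA-MD-231 the adjusted p of SNAI2 was 1 and its log2 fold change -3.34 to -3.47, since that time was then fitted from the line without reads. ZEB1 had 75.3, 62.4 and 64.8 CPM, against 78.3 and 86.1 CPM, with a log2 fold change of -0.28 ± 0.25 (edgeR BH-adjusted p = 0.390). GRHL2 in MDA-MD-468 had 60.5, 47.6 and 44.5 CPM, against 83.9 and 99.4 CPM, a log2 fold change of -0.86 ± 0.24 (edgeR BH-adjusted p = 0.0165), or -0.84 ± 0.23 with MDA-MD-468 fitted alone (edgeR BH-adjusted p = 0.0310). It was not called without the parental, the SY200/V50 3 h or the SY200/V50 6 h library of MDA-MD-468, and without the SY200/V50 12 h library its value was 0.52, since that time was then fitted from the line without reads.

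The RUNX genes moved less. RUNX2 had 3.75, 2.25 and 1.31 CPM in MDA-MD-468, against 4.27 and 6.58 CPM, a log2 fold change of -1.25 ± 0.34 (edgeR BH-adjusted p = 0.0128). RUNX1 had 42.1, 37.0 and 63.6 CPM in MDA-MD-468, against 65.8 and 92.1 CPM, a log2 fold change of -0.74 ± 0.27 (edgeR BH-adjusted p = 0.0464). Neither gene passed in MDA-MD-231, at -0.66 ± 0.31 for RUNX2 and -0.46 ± 0.27 for RUNX1 (edgeR BH-adjusted p of 0.110 and 0.191). Scaled to the mitochondrial mRNAs, RUNX2 (-1.99), RUNX1 (-1.79) and ZEB1 (-1.61) were called lower in MDA-MD-231 too (edgeR BH-adjusted p of 3.71e-05, 6.31e-07 and 2.65e-05). The calls of RUNX1, RUNX2 and GRHL2 in MDA-MD-468 are less secure: without the parental or the SY200/V50 6 h library of that line, 4 of 7 genes were called. RUNX2 was not called without its SY200/V50 12 h library either, and RUNX1 was lost in 8 of the 22 fits with 1 library left out. With DMSO alone as the control 4 of 7 were called as well. With MDA-MD-468 fitted alone RUNX1 and RUNX2 were lost (adjusted p of 0.0718 and 0.0615 by edgeR with BH), and DESeq2 called neither RUNX1 nor GRHL2 (adjusted p of 0.0992 and 0.0511). RUNX1 was also lost with DESeq2 size factors and with no filter on low counts (adjusted p of 0.0879 and 0.0603 by edgeR with BH).

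V50 lowered 3 of 7 measurable genes in MDA-MD-468 (6.65% of all genes passed, 2.97% higher and 3.69% lower) and 5 of 8 in MDA-MD-231 (15.7% passed, 7.69% higher and 7.98% lower). SOX9, SOX4 and FOXQ1 passed in both lines, and FOXC1 and SNAI2 in MDA-MD-231. FOXQ1 had 2.78, 4.84 and 3.81 CPM at 3, 6 and 12 h of V50 in MDA-MD-468, against 14.1 and 22.7 CPM, and 5.14, 2.27 and 4.45 CPM in MDA-MD-231, against 18.2 and 52.4 CPM. Its log2 fold changes were -2.26 ± 0.48 and -3.17 ± 0.49 (edgeR BH-adjusted p of 0.0156 and 0.00214). The log2 fold changes of SOX9 were -1.55 ± 0.29 and -2.00 ± 0.29 (edgeR BH-adjusted p of 0.00790 and 0.00163), and those of SOX4 -1.20 ± 0.28 and -2.10 ± 0.30 (edgeR BH-adjusted p of 0.0228 and 0.00165), MDA-MD-468 before MDA-MD-231. Without the parental or the V50 3 h library of MDA-MD-468 no gene was called there, with SOX9 at -1.01 and -1.61, and without its V50 12 h library SOX4 and FOXQ1 were lost. With each line fitted alone no gene was called in either line.

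The V50 levels of FOXC1 and SNAI2 were low at 3 h and closer to the controls at 12 h. FOXC1 had 2.50, 2.38 and 23.2 CPM at 3, 6 and 12 h in MDA-MD-231, against 18.2 and 20.5 CPM, so the 12 h library lay above both controls and the earlier libraries far below them. In MDA-MD-468 it had 10.3, 15.6 and 26.8 CPM, against 40.0 and 33.4 CPM, all below both controls. SNAI2 had 4.84, 12.5 and 15.1 CPM in MDA-MD-231, against 22.96 and 47.4 CPM. Over the 3 times the log2 fold changes in MDA-MD-231 were -1.75 ± 0.40 for FOXC1 and -1.86 ± 0.35 for SNAI2 (edgeR BH-adjusted p of 0.0110 and 0.0138). Without the V50 3 h or the V50 6 h library of MDA-MD-231, 3 of 8 genes were called. FOXC1 was also lost without the DMSO library of that line, SNAI2 without its parental or V50 12 h library, and SNAI2 did not pass with MDA-MD-231 fitted alone (-1.74 ± 0.46, edgeR BH-adjusted p = 0.263), nor did FOXC1, whose value there was -1.03 ± 0.92 (edgeR BH-adjusted p = 0.569). RUNX1 stood at 97.5, 234.8 and 229.3 CPM under V50 in MDA-MD-231, against 145.2 and 151.0 CPM, below both controls at 3 h and above both later, and did not pass over the 3 times (0.25 ± 0.27, edgeR BH-adjusted p = 0.572; -0.54 with mitochondrial scaling).

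Fewer of the genes were called with SY200. In MDA-MD-468 it lowered 0 of 7 genes by edgeR (0.132% of all genes passed, 0.0740% higher and 0.0582% lower), 4 had an unadjusted p under 0.05, and DESeq2 called 1. Scaled to the mitochondrial mRNAs, 7 of 7 were called lower there. This scaling moves all genes of a library together by its construction, so that count is not particular to the members. With that scaling so were 12 of 24 epithelial, 11 of 16 mesenchymal and 14 of 18 basal-like markers, and 18 of 25 further genes of the same families. In MDA-MD-231 SOX9 alone passed, 1 of 8 genes (0.190% of all genes passed, 0.0952% in each direction). SOX9 had 22.7, 37.0 and 43.1 CPM at 3, 6 and 12 h of SY200, against 122.4 and 158.1 CPM, a log2 fold change of -2.06 ± 0.29 (edgeR BH-adjusted p = 0.0121). It was not called without the parental library of that line (-1.88, edgeR BH-adjusted p = 0.114) or without the SY200 6 h library (-1.75, edgeR BH-adjusted p = 0.219), nor with MDA-MD-231 fitted alone (-2.00, edgeR BH-adjusted p = 0.999). SOX4 had 9.75, 16.0 and 19.4 CPM under SY200 in MDA-MD-231, against 11.1 and 15.7 CPM, the later libraries above both controls (0.13 ± 0.29, edgeR BH-adjusted p = 0.932).

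For 3 of the 7 measurable genes of MDA-MD-468, the SY200 6 h library was above the other times. There SOX9 was at 93.2 CPM, SOX4 at 81.9 CPM and FOXQ1 at 21.1 CPM, between the DMSO and parental levels, while at 3 h they were at 34.1, 41.8 and 4.67 CPM and at 12 h at 42.9, 47.4 and 11.2 CPM. The other genes did not share this: at 3, 6 and 12 h FOXC1 had 15.1, 26.1 and 28.8 CPM, GRHL2 62.5, 60.3 and 60.9 CPM, RUNX2 2.87, 2.75 and 3.12 CPM, and RUNX1, lowest at 6 h, 58.3, 46.7 and 57.4 CPM. This is 1 library, and whether the time or the library sets these values was not tested.

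**Figure D2:**
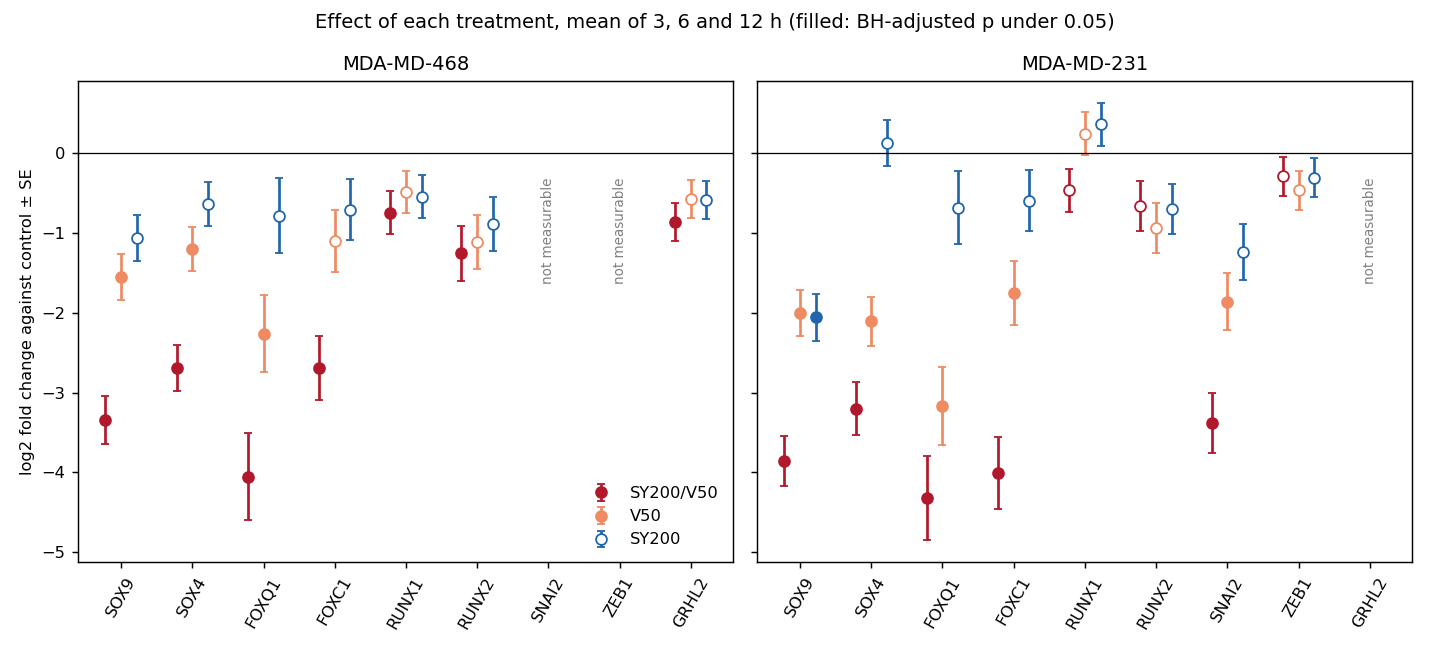
Log2 fold change against the controls of the same line ± SE, mean of 3, 6 and 12 h, for SY200/V50, V50 and SY200 in MDA-MD-468 (left) and MDA-MD-231 (right); filled points have an edgeR BH-adjusted p under 0.05. With SY200/V50 the SOX and FOX genes sit between -4.32 and -2.69, and RUNX1, RUNX2, ZEB1 and GRHL2 between -1.25 and -0.28.

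The size of an effect was compared between the lines for the 6 genes measurable in both. No gene passed for SY200/V50, V50 or SY200 (0% of all genes in each, edgeR), with 1, 1 and 2 genes at an unadjusted p under 0.05, and DESeq2 called 0 of these genes. The widest gap with SY200/V50 was that of FOXC1, 1.32 ± 0.61 less negative in MDA-MD-468 than in MDA-MD-231 on the log2 scale (edgeR BH-adjusted p = 0.308). For SOX9 the gap was 0.52 ± 0.42 and for FOXQ1 0.27 ± 0.76, so differences of the size of these errors could not be detected here.

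SY200/V50 was also set against each single agent, over both lines and the 3 times. Against V50, 5 of 9 genes were lower (19.9% of all genes passed, 7.52% higher and 12.4% lower), and against SY200, 6 of 9 (46.0% passed, 23.8% higher and 22.2% lower). SNAI2 and ZEB1 rest on MDA-MD-231 in these comparisons, and GRHL2 on MDA-MD-468. Against V50 the log2 differences were -1.82 ± 0.22 for SOX9, -1.81 ± 0.32 for FOXC1, -1.49 ± 0.37 for FOXQ1, -1.51 ± 0.36 for SNAI2 and -1.32 ± 0.29 for SOX4, with edgeR BH-adjusted p between 0.000102 and 0.0260. Against SY200 they were -3.47 ± 0.36 for FOXQ1, -2.69 ± 0.30 for SOX4, -2.60 ± 0.32 for FOXC1, -2.13 ± 0.36 for SNAI2 and -2.06 ± 0.22 for SOX9 (edgeR BH-adjusted p between 2.48e-06 and 0.00235), and RUNX1 was lower by a smaller amount (-0.52 ± 0.20, edgeR BH-adjusted p = 0.0370). Those of SNAI2 were lost without any 1 of the MDA-MD-231 libraries compared (edgeR BH-adjusted p = 1), and that of RUNX1 in 8 of the 22 fits with 1 library left out. Without the V50 6 h library of MDA-MD-468, 3 of 9 genes were called against V50, since FOXQ1 and SOX4 dropped out at -1.11 and -0.95 (edgeR BH-adjusted p of 0.0538 and 0.0502). RUNX2, ZEB1 and GRHL2 did not pass against either agent, with log2 differences from -0.27 to 0.24.

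Levels at 12 h were also set against those at 3 h, over both lines. Under V50, SOX9 and FOXC1 were higher at 12 h than at 3 h (12.8% of all genes passed, 7.97% higher and 4.84% lower), by 1.23 ± 0.36 and 2.33 ± 0.53 on the log2 scale (edgeR BH-adjusted p of 0.0329 and 0.00947), and RUNX2 was lower (-1.25 ± 0.37, edgeR BH-adjusted p = 0.0364). Without the V50 12 h or the V50 3 h library of MDA-MD-231 none of the 3 was called, with FOXC1 at 1.61 and 2.01, and without the V50 3 h library of MDA-MD-468 FOXC1 alone was (2.78, edgeR BH-adjusted p = 0.0466). Under SY200/V50, FOXQ1 and RUNX2 were lower at 12 h than at 3 h (18.3% of all genes passed, 9.57% higher and 8.73% lower), with log2 differences of -2.13 ± 0.71 and -1.13 ± 0.37 (edgeR BH-adjusted p of 0.0452 and 0.0433). Both are close to the threshold: without the SY200/V50 3 h or 6 h library of either line, neither was called, and FOXQ1 was lost in 10 and RUNX2 in 8 of the 22 fits with 1 library left out. Under SY200 no gene passed (0 of 9 by edgeR and by DESeq2, 0 at an unadjusted p under 0.05; 1.95% of all genes passed, 0.978% higher and 0.968% lower), with log2 differences from -0.28 to 0.93. Whether the change with time differed between V50 and SY200/V50 was not tested.

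**Figure D3:**
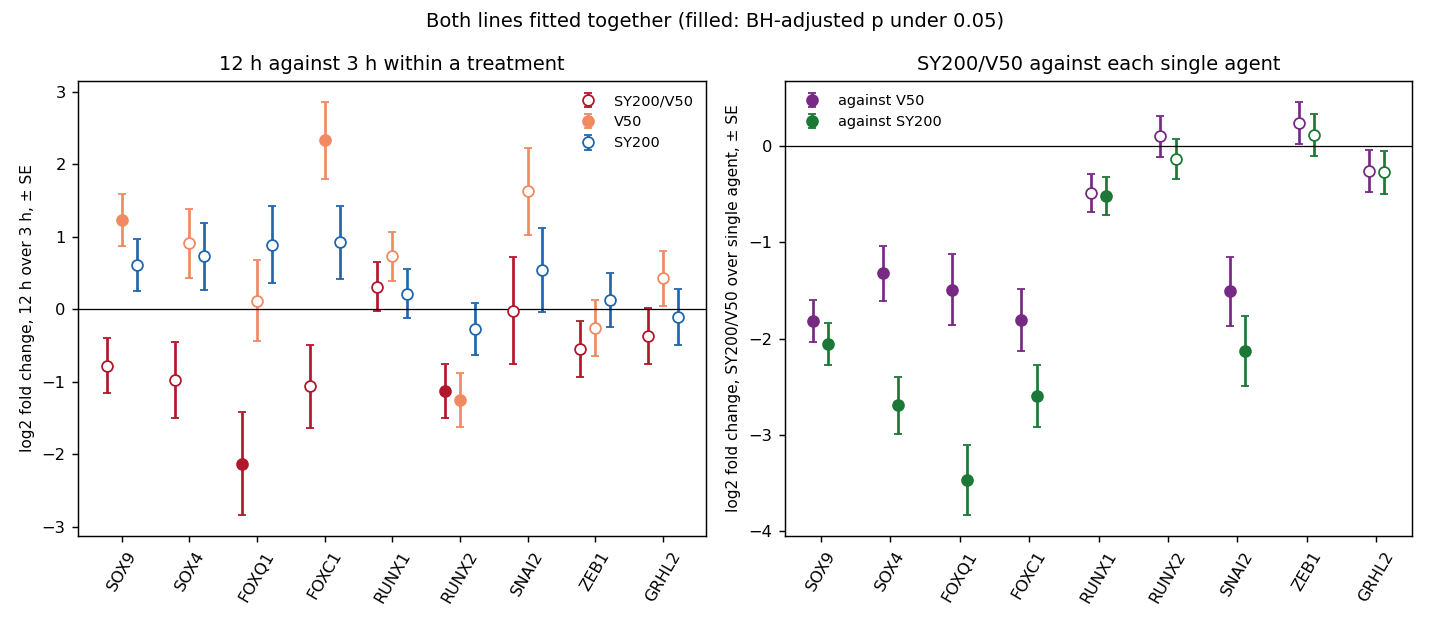
Log2 differences ± SE with both lines fitted together: 12 h over 3 h within each treatment (left) and SY200/V50 over each single agent (right); filled points have an edgeR BH-adjusted p under 0.05. FOXC1 is at 2.33 under V50 and -1.07 under SY200/V50 on the left, and 5 genes lie at or below -1.32 against V50 on the right.

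In the knockouts none of the 8 genes measurable in MDA-MD-231 was called against the empty vector. Of the targeted genes, CDK7 was at 15.6 and 17.1 CPM at 72 and 96 h in CDK7/9 KO cells and at 15.3 and 13.7 CPM in CDK7 KO cells, against 49.0 and 66.5 CPM with the empty vector. CDK9 was at 34.3 and 36.6 CPM in CDK7/9 KO cells and at 33.2 and 36.4 CPM in CDK9 KO cells, against 70.4 and 62.1 CPM. CDK1 was at 81.7 and 84.3 CPM in CDK1 KO cells, against 178.3 and 282.6 CPM with the empty vector, and at 84.4 CPM in the parental library as well. Of the 8 knockout libraries, 8 lay below both empty vector values for CDK7 (at most 48.9 CPM), 7 for CDK1 and 4 for CDK9. Levels of CDK7 and CDK1 below the empty vector were thus not confined to the targeted lines. The edited sites are not given in the labels, and a 3′ tag outside an edited site does not check the edit.

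Against the empty vector 0 of 8 genes passed by edgeR in CDK7/9 KO, CDK9 KO, CDK7 KO and CDK1 KO cells alike, where 11.3%, 8.16%, 0.0238% and 0.352% of all genes passed. Of all genes, 5.72%, 4.34%, 0.0179% and 0.322% were higher and 5.62%, 3.82%, 0.00596% and 0.0298% lower. At an unadjusted p under 0.05 there were 2, 0, 2 and 0 genes, and DESeq2 called 1, 0, 0 and 0. SOX9 lay between 217.3 and 247.8 CPM in the 8 knockout libraries, against 224.8 and 209.4 CPM with the empty vector. SNAI2 lay between 44.6 and 52.9 CPM, within the empty vector values of 43.9 and 57.2 CPM. FOXQ1 lay between 44.9 and 65.1 CPM, against 55.1 and 49.3 CPM.

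RUNX1 was the gene closest to the threshold. It had 215.6 and 210.9 CPM in CDK7/9 KO cells, against 181.2 and 147.4 CPM with the empty vector, both above both (0.38 ± 0.12 on the log2 scale, edgeR BH-adjusted p = 0.0576). This was not particular to CDK7/9 KO cells, since 7 of the 8 knockout libraries lay above both empty vector values. RUNX1 had 189.8 and 202.2 CPM in CDK9 KO, 192.5 and 204.5 CPM in CDK7 KO and 172.2 and 191.8 CPM in CDK1 KO cells. FOXC1 had 16.9 and 16.1 CPM in CDK7/9 KO cells, against 18.8 and 24.8 CPM (-0.39 ± 0.14, edgeR BH-adjusted p = 0.0919), and 18.4 and 16.7 CPM in CDK9 KO cells (-0.30 ± 0.14, edgeR BH-adjusted p = 0.187). These 0 counts rest on the 2 empty vector libraries, and none of the 4 held without the one at 72 h. That fit leaves 1 empty vector library, so calls in it are not read as a result about these genes. With any 1 of the 10 libraries left out, the CDK7/9 KO difference ranged from 0.20 to 0.55 for RUNX1 and from -0.60 to -0.19 for FOXC1. The mitochondrial mRNA share was 5.38% and 5.41% in CDK7/9 KO cells and 5.04% and 5.98% in CDK9 KO cells, against 3.77% and 2.60% with the empty vector, and its part in these results was not tested. Scaled to these mRNAs, 6 of 8 genes in CDK7/9 KO and 8 of 8 in CDK9 KO cells were called lower, while the median of all genes moved to -0.81 and -0.82. With that scaling so were 21 of 23 further genes of the same families in CDK7/9 KO and 21 of 23 in CDK9 KO cells. These counts are therefore not particular to the members.

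SOX4 was lower at 96 h than at 72 h in all 5 genotypes with both times. It had 50.8 against 80.1 CPM in CDK7/9 KO cells, 43.7 against 64.3 CPM in CDK9 KO cells, 44.9 against 61.0 CPM in CDK7 KO cells, 55.7 against 68.1 CPM in CDK1 KO cells and 51.7 against 56.3 CPM with the empty vector. The log2 difference was -0.42 ± 0.08 (edgeR BH-adjusted p = 0.166), and 0 of 8 genes passed (0.0536% of all genes did, 0.0238% higher and 0.0298% lower), 1 with an unadjusted p under 0.05. DESeq2 called 1. Without the empty vector library of either time, SOX4 was called.

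**Figure D4:**
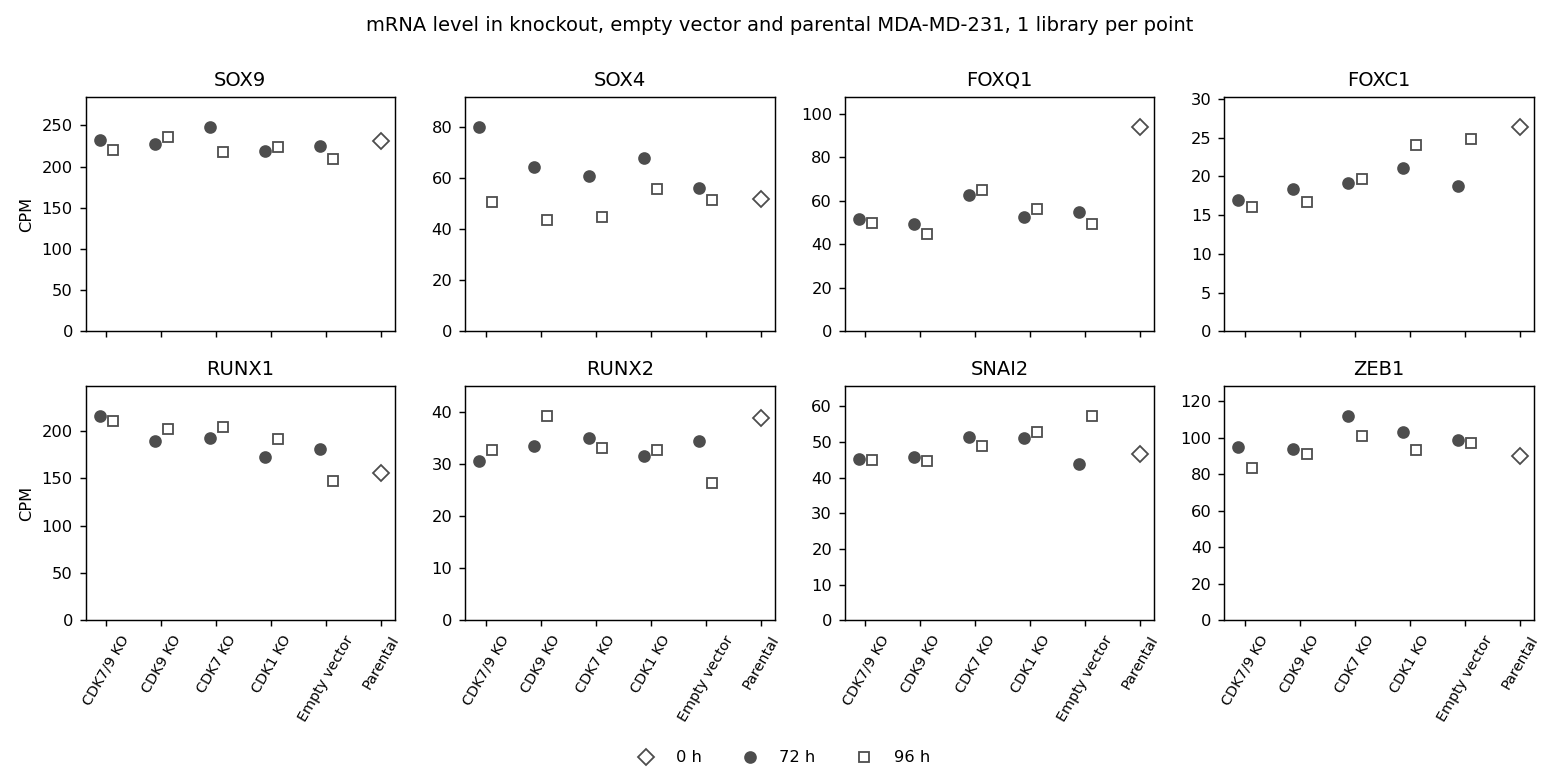
CPM of the 8 genes measurable in MDA-MD-231 for CDK7/9 KO, CDK9 KO, CDK7 KO, CDK1 KO, empty vector and parental cells; circles are 72 h, squares 96 h and the diamond 0 h, 1 library per point. Knockout libraries lie close to the empty vector ones for SOX9 (217.3 to 247.8 CPM against 209.4 and 224.8 CPM), and FOXQ1 is at 93.8 CPM in the parental library.

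Other genes of the same families fell with SY200/V50 too. Of 38 further SOX, FOX, RUNX, SNAI, ZEB and GRHL family genes, 25 were measurable in MDA-MD-468 and 23 in MDA-MD-231, and 18 and 14 of these were lower with 1 higher in each line. Of all genes tested, 18.2% and 19.5% were lower and 13.5% and 20.0% higher. Among measurable coding genes grouped by length, 25.1% to 27.9% were lower in MDA-MD-468 and 26.4% to 28.1% in MDA-MD-231. The median log2 fold change of the family genes was -0.96 and -1.46, against -0.00 and 0.09 over all genes. In MDA-MD-468 the log2 fold change was -2.76 ± 0.31 for FOXA1, a luminal pioneer factor, and -2.53 ± 0.25 for SOX11 (edgeR BH-adjusted p of 5.53e-05 and 0.000124). In MDA-MD-231 it was -4.30 ± 0.34 for FOXA2 and -3.32 ± 0.47 for FOXO1, a target of AKT signalling in the cell (edgeR BH-adjusted p of 6.59e-05 and 0.000108). The gene that was higher in MDA-MD-231 was FOXM1, a factor of the cell cycle (0.83 ± 0.11, edgeR BH-adjusted p = 7.57e-05). In CDK9 KO cells the family gene with the smallest adjusted p was FOXP4 (0.42 ± 0.13, edgeR BH-adjusted p = 0.0646).

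Epithelial and mesenchymal genes, which these factors are known to govern, were counted in the same way. With SY200/V50, 11 of 24 epithelial genes were lower and 1 was higher in MDA-MD-468 (median -0.63), and 1 of 14 was lower and 3 were higher in MDA-MD-231 (median 0.10). Over all genes tested 18.2% were lower and 13.5% higher in MDA-MD-468, and 19.5% and 20.0% in MDA-MD-231. Among measurable coding genes grouped by length, 25.1% to 27.9% were lower and 7.6% to 20.9% higher in MDA-MD-468. In MDA-MD-231 these shares were 26.4% to 28.1% and 18.8% to 30.1%. The epithelial genes lower in MDA-MD-468 included ELF3, an epithelial ETS factor (-2.88 ± 0.38), GRHL3 (-2.42 ± 0.29) and the tight junction gene CLDN4 (-2.31 ± 0.38; edgeR BH-adjusted p between 0.000155 and 0.000536). Of the mesenchymal genes, 2 of 16 were higher and 3 lower in MDA-MD-468 (median 0.09), and 7 of 17 were higher and 1 was lower in MDA-MD-231 (median 0.66), among these 7 the matrix gene FN1 (1.35 ± 0.22), TGFBI (1.20 ± 0.19) and the receptor kinase AXL (1.13 ± 0.17; edgeR BH-adjusted p between 0.000178 and 0.000293). These rises are relative to the bulk of genes: scaled to the mitochondrial mRNAs, 0 of 17 mesenchymal genes were higher and 8 were lower in MDA-MD-231, 0 of 16 were higher and 14 lower in MDA-MD-468, and 0 of 14 epithelial genes were higher and 9 were lower in MDA-MD-231. In CDK9 KO cells, scaled with TMM, 4 of 14 epithelial genes were lower and 0 higher, against 3.82% and 4.34% of all genes. Among these were the keratins KRT19 (-0.92 ± 0.10), KRT8 (-0.61 ± 0.09) and KRT18 (-0.61 ± 0.09; edgeR BH-adjusted p between 0.00409 and 0.00759). In CDK7/9 KO cells 3 of 14 were lower and 1 was higher, against 5.62% and 5.72% of all genes. Of 17 mesenchymal genes, 1 was lower in CDK9 KO and 3 in CDK7/9 KO cells, with 0 higher. The 8 measurable members did not pass in either.

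Profiles of log2(CPM + 1) were compared over the 11 libraries of a line, as a description of libraries that share treatments, times and scaling. In MDA-MD-468 Pearson's r was 0.976 between SOX9 and SOX4, 0.951 between SOX4 and FOXC1 and 0.928 between SOX9 and FOXC1. It was lower for RUNX1, at 0.603 with SOX9, 0.491 with FOXC1, 0.483 with SOX4 and 0.380 with GRHL2. In MDA-MD-231 it was 0.945 between SOX9 and SNAI2, 0.867 between FOXC1 and SNAI2, 0.790 between RUNX2 and ZEB1, and -0.530 between RUNX1 and RUNX2. Among all genes with a mean of at least 10 CPM, those most like SOX9 were ZNF217 (0.985), PLK2 (0.978) and SOX4 in MDA-MD-468, and IRF2BP2 (0.973), VEZF1 (0.965) and ZBTB18 (0.948) in MDA-MD-231. PLK2 was also among the 3 most like SNAI2 in MDA-MD-231 (0.967), after CITED2 (0.969) and before KLF6 (0.948). The profile of FOXC1 was most like B3GNT2, PPP1R3D and TRIM32 in MDA-MD-468 (0.989 each), and PELO, FRAT2 and MYNN in MDA-MD-231 (0.988, 0.988 and 0.984). ZEB1 in MDA-MD-231 was most like PTPN12 (0.921), and GRHL2 in MDA-MD-468 most like CENPO and POU2F1 (0.966 each).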

How the data were processed

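RNA was made into 3′ tag libraries, per the labels' protocols. STAR 2.7.10a, FastQC and the GRCh38 build are named in the submitters' processing notes. The authors deposited 1 table of raw counts by gene, and its whole numbers and unequal column totals show no normalization. No source used here names the counting tool, its strand setting or any use of molecular identifiers. Some members overlap other genes (SOX9-AS1, ZEB1-AS1 and, at RUNX2, SUPT3H), and without a known strand setting such reads cannot be told apart.

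Here the counts were tested with edgeR 4.0.16 under R 4.3.3, using filterByExpr (minimum count 10, minimum total 15), TMM factors, quasi-likelihood F tests and BH adjustment at 0.05 over 18911 genes (inhibitors) or 16783 genes (knockouts). Each standard error follows from the log2 fold change and F. The inhibitor design had a term per treatment and time, 1 for the line and 1 per treatment for the line difference, leaving 8 residual degrees of freedom. Without line differences (11 degrees) it gave the contrasts of time and of agents, and with separate DMSO and parental terms (10 degrees) the contrast of those controls. Knockouts had terms for genotype and time (4 degrees), and the parental library at 0 h was left out. The fits were also run on simulated counts, to see whether they return a change that was put in. Those counts had a single dispersion for all genes and the same change at every time, so they do not check the p-values given here. Alternatives were DESeq2 1.42.0, its size factors, mitochondrial scaling, no filter, DMSO as the only control, each line alone, no time term, and leaving out each library.

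The members, gene lists and tests were chosen with earlier results of these data known. Named genes are all members, the list genes of smallest adjusted p and the 3 genes most like a member. All 9 members passed the filter in the inhibitor fit and 8 in the knockout fit, where GRHL2 had at most 1 read. Replicate cultures are not stated, so p-values measure only the spread between these libraries. The 2 controls of each line were not 1 library deposited again: their counts gave a chi-square of 27.5 per degree of freedom for MDA-MD-468 and 44.5 for MDA-MD-231. The floor of 3 reads covers counting error only. Gene positions come from GENCODE and promoters from RefSeq.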

Additional observations from a re-analysis of the deposited data

Results flagged for a closer look

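FOXQ1 was at 93.8 CPM in the 0 h parental library of the knockout part, against 55.1 and 49.3 CPM with the empty vector at 72 and 96 h. That library has no matching time and enters no comparison, and its FOXQ1 level was more than 1.5 times both empty vector values. In the inhibitor part FOXQ1 was at 14.1 CPM with DMSO and 22.7 CPM in parental MDA-MD-468 cells, and at 18.2 CPM with DMSO and 52.4 CPM in parental MDA-MD-231 cells, with no call (-1.13 ± 0.46, edgeR BH-adjusted p = 0.532). No group had enough libraries to look for outlying ones.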

How the results depend on the processing

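Falls of SOX9, SOX4, FOXQ1 and FOXC1 with SY200/V50 kept their direction in both lines under every alternative, and passed in all but the fit of each line alone, where FOXC1 in MDA-MD-231 had -3.94 (edgeR BH-adjusted p = 0.0532). Counts of members called that moved by over 1.5 times were as follows. Scaled to the 13 mitochondrial mRNAs, 7 were called for SY200 and 7 for V50 in MDA-MD-468, 8 for SY200/V50 in MDA-MD-231, 8 for SY200/V50 at 12 h over 3 h, 8 in CDK9 KO and 6 in CDK7/9 KO cells. DESeq2 called 1 for SY200 in MDA-MD-468, 1 in CDK7/9 KO cells and 1 for 96 h over 72 h. With DMSO alone as control, 0 were called for V50 and 4 for SY200/V50 in MDA-MD-468, and 0 for SY200 in MDA-MD-231. With each line fitted alone, 0 were called for V50 in MDA-MD-468, 0 for SY200 in MDA-MD-231 and 0 for V50 in MDA-MD-231. Smaller moves for SY200/V50 were to 5 of 7 in MDA-MD-468 with DESeq2 and with each line fitted alone, to 6 of 7 there with DESeq2 size factors and with no filter, and to 4 of 8 in MDA-MD-231 with each line fitted alone. With no filter on low counts, 0 were called for SY200/V50 at 12 h over 3 h, 2 in CDK7/9 KO cells and 1 for 96 h over 72 h. Some log2 values changed sign. With mitochondrial scaling they were -0.11 for SOX4 with SY200 and -0.54 for RUNX1 with V50 in MDA-MD-231, 0.15 for GRHL2 with SY200, -0.08 for FOXQ1 with V50 and -0.89 for RUNX1 with SY200/V50 at 12 h over 3 h, -0.42 for RUNX2 and -0.29 for ZEB1 with SY200/V50 over V50, and -0.94 for ZEB1 over SY200. In CDK9 KO cells they were -0.55 for RUNX1, -0.54 for RUNX2 and -0.73 for SOX9, and in CDK7/9 KO cells -0.40 for RUNX1, -0.72 for RUNX2, -0.58 for SOX4 and -0.74 for SOX9. With DMSO alone FOXQ1 was 0.25 with SY200 in MDA-MD-231 and -0.29 for the SY200/V50 line difference. SNAI2 with SY200/V50 at 12 h over 3 h was 0.02 with DESeq2 size factors and 0.06 with DESeq2, and SOX4 in CDK9 KO cells was 0.00 with no term for time. Mitochondrial scaling moves all genes of a library together by its construction, and the cause of the other changes was not tested. Leaving out each library in turn gave these ranges of counts called: V50 in MDA-MD-468 0 to 5, SY200/V50 in MDA-MD-468 4 to 7, SY200 in MDA-MD-231 0 to 1, V50 in MDA-MD-231 3 to 6, V50 12 h over 3 h 0 to 3, SY200/V50 12 h over 3 h 0 to 2, SY200/V50 against V50 3 to 6, CDK1 KO 0 to 2, CDK7 KO 0 to 4, CDK9 KO 0 to 4, CDK7/9 KO 0 to 5, 96 h over 72 h 0 to 1. No share of all genes is set beside these counts, so they are not read as a result about the members. The values that changed sign when 1 library was left out had these ranges. For SY200 in MDA-MD-468: GRHL2 -1.34 to 0.39. For SY200/V50 in MDA-MD-468: GRHL2 -1.90 to 0.52. For SY200 in MDA-MD-231: SOX4 -0.21 to 0.38, FOXQ1 -1.26 to 0.25. For V50 in MDA-MD-231: RUNX1 -0.04 to 0.51, ZEB1 -1.07 to 0.22. For SY200/V50 in MDA-MD-231: ZEB1 -0.97 to 0.49. For SY200 effect, MDA-MD-468 minus MDA-MD-231: FOXQ1 -1.05 to 0.46, RUNX2 -0.60 to 0.15, FOXC1 -0.24 to 0.02. For V50 effect, MDA-MD-468 minus MDA-MD-231: RUNX2 -0.58 to 0.18, FOXQ1 -0.04 to 1.47. For SY200/V50 effect, MDA-MD-468 minus MDA-MD-231: FOXQ1 -0.68 to 0.83, RUNX1 -0.51 to 0.05. For MDA-MD-468 against MDA-MD-231 (controls): FOXQ1 -1.47 to 0.04, SOX9 -0.88 to 0.08. For SY200 12 h over 3 h: RUNX1 -0.02 to 0.42, SOX4 -0.31 to 1.38, ZEB1 -0.47 to 1.28. For V50 12 h over 3 h: SNAI2 -0.08 to 1.79, ZEB1 -0.37 to 1.22, FOXQ1 -0.11 to 0.36, GRHL2 -1.29 to 1.67. For SY200/V50 12 h over 3 h: SNAI2 -2.36 to 2.44, GRHL2 -0.51 to 2.86, RUNX1 -0.43 to 0.74. For SY200/V50 against V50: RUNX2 -0.08 to 0.26, ZEB1 -0.14 to 0.71, GRHL2 -0.67 to 0.91. For SY200/V50 against SY200: ZEB1 -0.30 to 0.53, GRHL2 -1.01 to 0.90. For CDK9 KO: SNAI2 -0.37 to 0.05, SOX4 -0.22 to 0.16. For CDK7/9 KO: FOXQ1 -0.12 to 0.02, RUNX2 -0.16 to 0.28, SNAI2 -0.37 to 0.04. In the inhibitor part, leaving out a library of the line that expresses SNAI2, ZEB1 or GRHL2 leaves that time to the line with few or no reads of the gene. The labels give no replicate numbers, so no block was fitted beyond the terms for line and time in the models. SNAI2 and ZEB1 in MDA-MD-468 and GRHL2 in MDA-MD-231 had too few reads for their response to be described.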

Other observations

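Markers of basal-like and luminal breast cancer were also read with SY200/V50. Of all genes tested, 18.2% were lower and 13.5% higher in MDA-MD-468, and 19.5% and 20.0% in MDA-MD-231. Among measurable coding genes grouped by length, 25.1% to 27.9% were lower and 7.6% to 20.9% higher in MDA-MD-468. In MDA-MD-231 these shares were 26.4% to 28.1% and 18.8% to 30.1%. In MDA-MD-468, 5 of 18 basal genes were lower and 0 higher, among them the helix-loop-helix factor ID4 (-2.26 ± 0.37) and the homeobox gene EN1 (-2.07 ± 0.36; edgeR BH-adjusted p of 0.000583 and 0.00419). In MDA-MD-231, 3 of 10 were lower and 4 higher, with TFAP2C, an AP-2 factor, at -4.42 ± 0.41 (edgeR BH-adjusted p = 1.04e-05). Of the luminal genes, 2 of 7 were lower and 1 higher in MDA-MD-468, the higher one AGR2 (1.47 ± 0.35, edgeR BH-adjusted p = 0.00573), and 3 of 7 were lower and 0 higher in MDA-MD-231. GATA3, the luminal factor, fell in both lines, with -1.82 ± 0.37 in MDA-MD-468 and -2.40 ± 0.42 in MDA-MD-231 (edgeR BH-adjusted p of 0.00215 and 0.000441). Scaled to the mitochondrial mRNAs, 17 of 18 basal and 5 of 7 luminal genes were lower in MDA-MD-468. In MDA-MD-231 5 of 10 basal and 6 of 7 luminal genes were, with 0 higher in either list or line.

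The 5 members that span less than 10 kb (SOX9, SOX4, FOXQ1, FOXC1 and SNAI2) and the 4 that span more than 100 kb (RUNX1, RUNX2, ZEB1 and GRHL2) did not overlap in their log2 fold changes with SY200/V50, a split noticed after the values were seen. The short measurable members lay between -4.05 and -2.69 in MDA-MD-468 and between -4.32 and -3.20 in MDA-MD-231, and the long ones between -1.25 and -0.74 and between -0.66 and -0.28. Among measurable coding genes the calls of lower genes did not separate by length in this way. In MDA-MD-468 27.9% of those under 10 kb and 26.8% of those over 100 kb were lower, and 28.1% and 26.4% in MDA-MD-231. The shares called higher did differ by length. They were 20.9% under 10 kb and 7.6% over 100 kb in MDA-MD-468, and 30.1% and 18.8% in MDA-MD-231. The median log2 fold change of these genes was -0.05 under 10 kb and -0.29 over 100 kb in MDA-MD-468. In MDA-MD-231 it was 0.19 and -0.06, so short genes had the higher median in both lines, opposite to the members. With V50 in MDA-MD-468 the short members (-2.26 to -1.10) and the long ones (-1.11 to -0.48) overlapped, as they did with SY200 in MDA-MD-468 (-1.06 to -0.64 and -0.89 to -0.54) and in MDA-MD-231 (-2.06 to 0.13 and -0.70 to 0.36). With V50 in MDA-MD-231 they did not (-3.17 to -1.75 and -0.94 to 0.25). Of the measurable coding genes there, 15% of those under 10 kb and 11.8% of those over 100 kb were lower, and 12.3% and 4.3% were higher. The members are too few and were chosen with results known, so this is a description only.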
